A study of Mus musculus with 6 samples.

Results

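The kinesin family was described across 6 single-colour arrays of mouse neurosphere cultures, floating clusters of neural precursor cells. Its members were the gene probes whose single gene symbol is a numbered Kif gene or one of the kinesin light chains Klc1 to Klc4, which gave 46 probes for 37 genes, of 34967 gene probes on the array. The rule goes by gene name. They were read as 11 mitotic genes, 14 transport genes, 3 light chain genes and 9 other genes. Kif15, Kif16b and Klc2 belonged to these lists but had no probe under the rule.

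Of the 6 cultures, 3 were transfected with an antisense oligonucleotide to the microRNA miR-335 (anti-miR-335) and 3 with a control oligonucleotide whose label names EGFP (nonsense control), both made of 2′-O-methyl bases. The precursors of all 6 were taken from the cortical wall (dorsal telencephalon) of C57BL/6 mouse fetuses of embryonic day 12.5, and the medium held bFGF, EGF and LIF without serum. The labels give the length of the oligonucleotide treatment as 24 without a unit and do not say how many fetuses were pooled. They call the replicates independent but do not state which steps were repeated for each replicate. The p-values therefore cover the spread among these 6 samples only, which may be technical. No level of miR-335 itself was analysed here.

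The microRNA comes from a hairpin on chromosome 6 of assembly GRCm38.p6 that yields a mature strand from each arm (RefSeq sequences). Both are shown because the labels do not say which one the oligonucleotide pairs with. Capitals mark the seed, bases 2 to 8, through which a microRNA pairs with its target mRNAs. The arms lie on the plus strand at chr6:30741314-30741336 (5p) and chr6:30741354-30741375 (3p).
mmu-miR-335-5p: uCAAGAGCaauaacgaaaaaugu
mmu-miR-335-3p: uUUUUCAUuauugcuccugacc

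Kinesins are motor proteins that use ATP to move along microtubules or to shorten them. In dividing cells, mitotic kinesins build the spindle, move the chromosomes and complete the separation of the daughter cells. In neurons and other differentiated cells, transport kinesins carry vesicles, organelles and RNA along axons, dendrites and cilia. Kinesin-1, the founding motor, pairs heavy chains (Kif5a, Kif5b or Kif5c) with light chains (Klc), which help it to take up cargo and keep it inactive when it has none. A culture of cortical precursors holds dividing cells and some early neurons, so both kinds of motor can be present.

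An intensity is given in units of each array's median. Above background means brighter than the negative control spots of the same array, by more than 3 scaled median absolute deviations over their median (a limit of 0.492 to 0.692). Precursor markers were detected: 7 of 8, among them Nes, Sox2, Pax6 and Vim, were above background on all 6 arrays, and Hes1 was not on any. All 5 astrocyte markers were above background on all 6 arrays too, so these counts do not tell precursors from astrocytes. One array stood apart: nonsense control replicate 1 correlated less with the other controls (mean r = 0.976 across 17843 probes) than with the anti-miR-335 arrays (mean r = 0.984), while the mean r of each other array with its own group was 0.983 to 0.992. For kinesin genes above background on at least 3 arrays, the value without this array is given wherever it turned the sign or moved by over 1.5 times.

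By limma, 0 of 46 kinesin probes passed an adjusted p of 0.05, and 0 of 34847 probes did over the whole array (0.0%). At an unadjusted p under 0.05 there were 3 of 37 kinesin genes, 8.11%, against 9.07% of all probes. They were Klc1, Kif3c and Kif12, and all 3 were higher on the anti-miR-335 arrays (4.91% of all probes were higher and 4.17% lower). Group values did not overlap for 4 kinesin genes, 10.8%, against 15.0% of all probes. Klc1, Klc3 and Kif2c were the higher ones (7.59% of all probes) and Kif6 the lower one (7.37%). Both shares were under those of the array as a whole. With the brightest probe standing for each gene, 25 of 37 log2 differences were positive (51.9% of all probes), and the median was 0.11, against 0.01 over all probes. Of the 26 genes above background on at least 3 arrays, 19 were positive (55.7% of all such probes). Without control replicate 1, 28 of 36 were positive (54.5% of all probes). A log2 difference is anti-miR-335 minus nonsense control throughout.

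**Figure D1:**
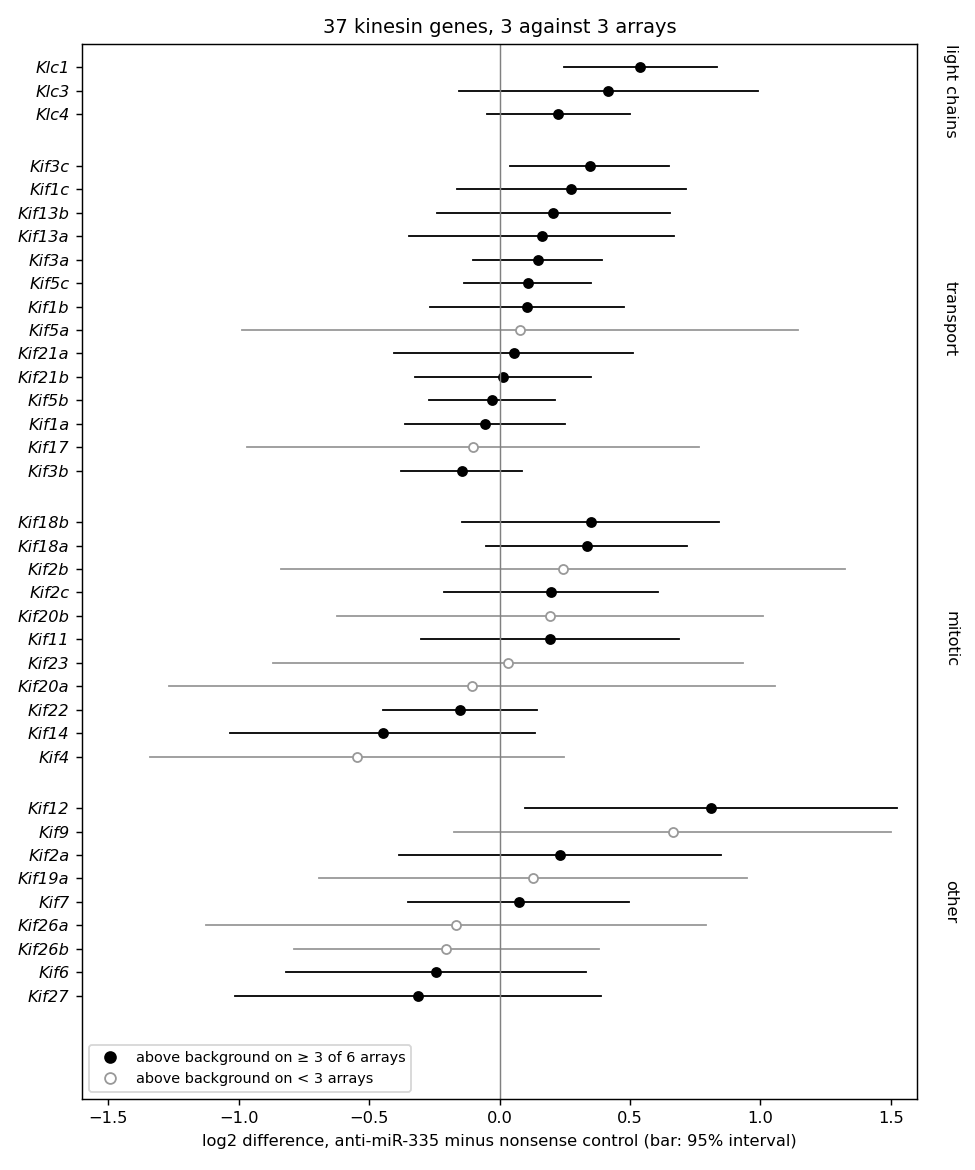
Log2 difference (anti-miR-335 minus nonsense control) of the 37 kinesin genes on the horizontal axis, by list, with 95% intervals from limma. Filled points are genes above background on at least 3 of 6 arrays. The Klc3 point is the fitted value against controls below the background limit. The intervals of Klc1, Kif3c and Kif12 lie above 0 before adjustment, and those of the other 34 genes include 0.

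The light chains come first, since Klc1 had the smallest p of the family. Klc1, the light chain abundant in neurons (chromosome 12, 111758435 to 111807844), had intensities of 21.9, 28.7 and 29.6 in anti-miR-335 replicates 1, 2 and 3, against 18.7, 16.7 and 19.4 in nonsense control replicates 1, 2 and 3. All 3 anti-miR-335 arrays lay above all 3 controls, with replicate 1 nearest to them. The means were 26.7 ± 4.23 and 18.3 ± 1.42 (SD, n = 3 each), a log2 difference of 0.54 ± 0.13 (SE) with a 95% interval from 0.25 to 0.83, and an adjusted p of 0.394 by limma. Unlike most of the family, the Klc1 probe had control replicate 1 among the other controls, and without that array the difference was 0.56 ± 0.14 (adjusted p = 0.0574).

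Klc4, a further light chain, had 11.1, 12.0 and 11.6 on the anti-miR-335 arrays, against 11.8, 8.93 and 9.15 in the controls. Control replicate 1 lay among the anti-miR-335 arrays and the other 2 controls below them. The log2 difference was 0.23 ± 0.12 (SE; adjusted p = 0.626), and 0.35 ± 0.08 without control replicate 1 (adjusted p = 0.0523). Klc3, the light chain best known from developing sperm, had 0.724, 0.775 and 0.666 on the anti-miR-335 arrays, against 0.428, 0.602 and 0.609 in the controls. Its groups did not overlap, but all 3 controls were below the background limit, so the fold is a bound of at least 1.12-fold higher on the anti-miR-335 arrays (adjusted p = 0.669). Without control replicate 1 the fitted Klc3 difference was 0.25 ± 0.26 (adjusted p = 0.678). The differences of all 3 measured light chains were positive, and 0 passed. Their median was 0.23 with Klc3 at its bound, and 0.42 with its fitted value.

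Among the kinesin-1 heavy chains, which these light chains bind, Kif5b and Kif5c lay close to 0. Kif5b, the heavy chain found in most cells, had 20.4, 22.6 and 25.3 on the anti-miR-335 arrays, against 24.1, 22.99 and 22.4 in the controls. The groups overlapped fully, and the log2 difference was -0.03 ± 0.11 (SE) with a 95% interval from -0.27 to 0.21 (adjusted p = 0.960), or -0.000447 without control replicate 1. Kif5c, a heavy chain enriched in neurons, had 7.98, 9.09 and 9.43 on the anti-miR-335 arrays, against 8.60, 7.61 and 8.36 in the controls. Anti-miR-335 replicates 2 and 3 were the highest, and replicate 1 lay among the controls. Its difference was 0.11 ± 0.11 (interval from -0.14 to 0.35; adjusted p = 0.808). Kif5a, the neuronal heavy chain, had 0.487, 0.422 and 0.115 on the anti-miR-335 arrays, against 0.336, 0.206 and 0.412 in the controls, and was above background on none of the 6. The Kif5a difference was 0.08 ± 0.48, with an interval from -0.99 to 1.14. Whether the light and heavy chains differ from each other in response was not tested.

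**Figure D2:**
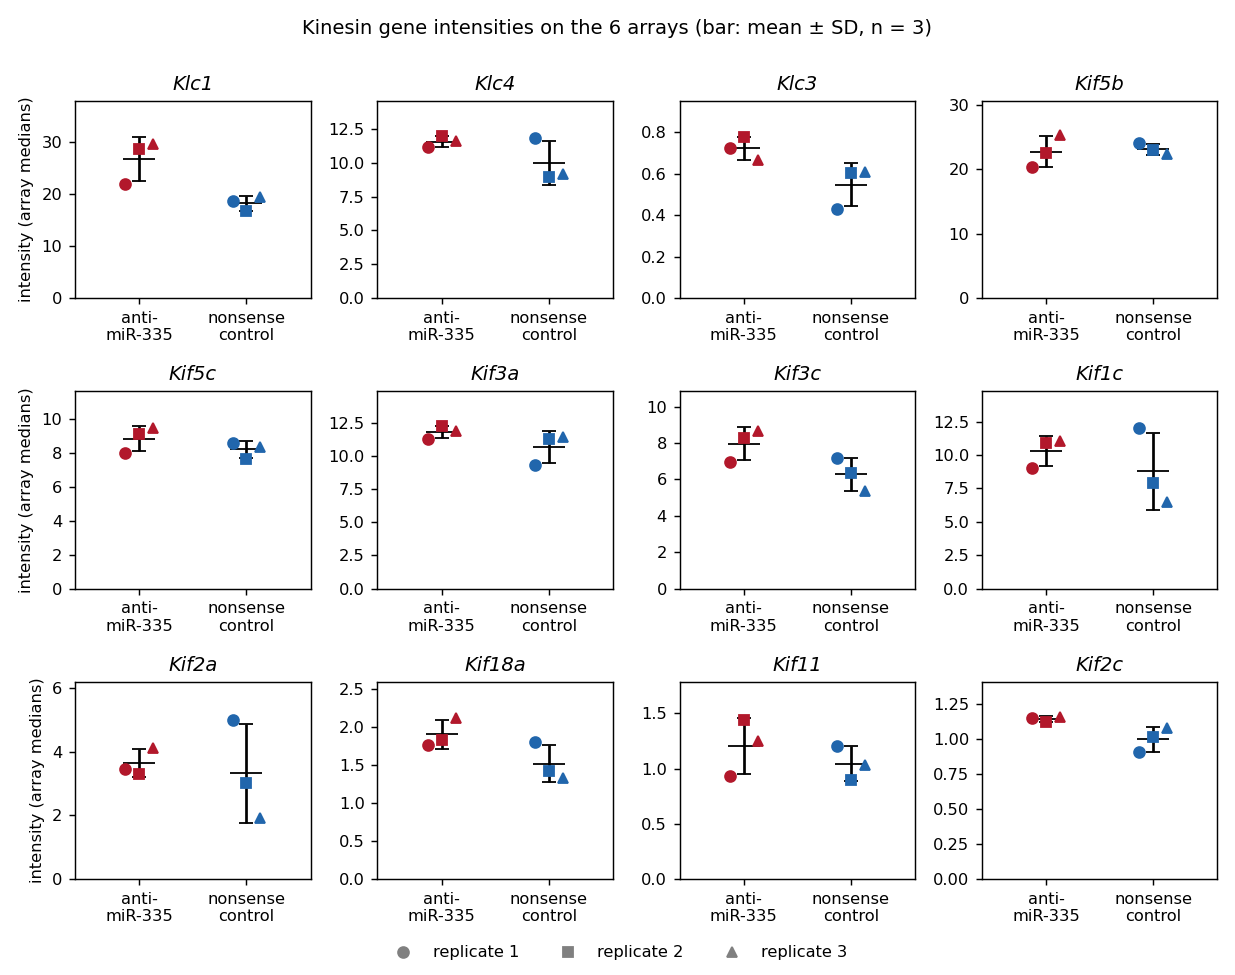
Intensity in array medians (vertical axis, from 0) of 12 kinesin genes on each array, anti-miR-335 left and nonsense control right, with mean ± SD (n = 3). The Klc1 groups do not overlap, while Kif5b ranges from 20.4 to 25.3 in the anti-miR-335 arrays and from 22.4 to 24.1 in the controls, and Kif1c and Kif2a have their highest value in nonsense control replicate 1.

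Kinesin-2 is built from Kif3 proteins and drives transport within cilia as well as along axons. Kif3c, which pairs with Kif3a and is most abundant in neural tissue, had 6.95, 8.26 and 8.68 on the anti-miR-335 arrays, against 7.18, 6.32 and 5.36 in the controls. Only anti-miR-335 replicate 1 and control replicate 1 crossed over. The log2 difference was 0.35 ± 0.14 (SE; interval from 0.04 to 0.65), with an adjusted p of 0.510, and 0.45 ± 0.12 without control replicate 1 (adjusted p = 0.0781). Kif3a, the shared partner, had 11.3, 12.2 and 11.9 on the anti-miR-335 arrays, against 9.33, 11.3 and 11.4 in the controls. Its lower control mean came from control replicate 1, and the log2 difference was 0.15 ± 0.11 (adjusted p = 0.726), or 0.05 without that array. Kif3b, the other ciliary partner of Kif3a, had 20.1, 21.9 and 18.2 on the anti-miR-335 arrays, against 21.7, 21.4 and 23.3 in the controls. Anti-miR-335 replicate 3 was the lowest, and the log2 difference was -0.15 ± 0.11 (adjusted p = 0.711). The 3 subunit genes therefore did not share a direction. Kifap3, the adaptor that joins Kif3a and Kif3b and lies outside the rule, had a log2 difference of -0.02 ± 0.11 (adjusted p = 0.970).

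The kinesin-3 genes encode monomeric or dimeric motors for vesicles and organelles. Kif1c, a vesicle motor, had 9.02, 10.9 and 11.04 on the anti-miR-335 arrays with its brighter probe, against 12.0, 7.88 and 6.46 in the controls. The highest of the 6 values belonged to control replicate 1, and the other controls lay below all anti-miR-335 arrays. The log2 difference was 0.27 ± 0.20 (SE; adjusted p = 0.709), and 0.53 ± 0.12 without control replicate 1, where it was the 1 kinesin probe of 45 to pass (adjusted p = 0.0497; 2.22%, against 3.17% of all probes in that fit, 2.27% higher and 0.906% lower). Its dimmer probe had 1.69, 2.22 and 1.92 on the anti-miR-335 arrays, against 1.67, 1.621 and 1.56 in the controls. Groups did not overlap there, and the log2 difference was 0.26 ± 0.16 (adjusted p = 0.669), which did not pass without control replicate 1 either (adjusted p = 0.402).

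Kif1a, the carrier of synaptic vesicle precursors, had 3.92, 4.76 and 4.94 on the anti-miR-335 arrays, against 5.37, 4.19 and 4.62 in the controls. Values were interleaved, with a log2 difference of -0.06 ± 0.14 (SE; adjusted p = 0.931), which turned positive without control replicate 1 (0.04). Kif1b, which carries mitochondria and synaptic vesicle precursors through its splice forms, gave different readings on its probes. The brighter one had 24.6, 26.8 and 26.0 on the anti-miR-335 arrays, against 31.1, 24.2 and 18.3 in the controls (log2 difference 0.10 ± 0.17; adjusted p = 0.888). Control replicate 1 was the highest of the 6, and without it the difference was 0.29 ± 0.12 (adjusted p = 0.231). The other, which the array layout describes as transcript variant 1, had 6.89, 6.30 and 5.19 on the anti-miR-335 arrays, against 6.90, 8.02 and 7.01 in the controls. On that probe all anti-miR-335 values lay below all controls, replicate 1 by a narrow margin, with a log2 difference of -0.26 ± 0.13 (adjusted p = 0.589). Kif13b, a vesicle motor that binds the scaffold protein Dlg1, had 6.53, 6.98 and 8.75 on the anti-miR-335 arrays, against 9.06, 5.50 and 5.21 in the controls, and a log2 difference of 0.21 ± 0.20 (adjusted p = 0.798), or 0.46 ± 0.13 without control replicate 1 (adjusted p = 0.0820).

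The remaining transport genes had log2 differences from -0.10 to 0.16. Kif21a, a regulator of microtubule growth in axons, had 8.10, 6.62 and 7.36 on the anti-miR-335 arrays, against 10.3, 6.35 and 5.37 in the controls (0.05 ± 0.21 SE; adjusted p = 0.960). Here too control replicate 1 was the highest, and without it the difference was 0.33 ± 0.12 (adjusted p = 0.161). Its relative Kif21b had a value on 5 arrays only, anti-miR-335 replicate 2 being empty, and differed by 0.01 ± 0.15 (adjusted p = 0.987), or -0.03 ± 0.14 without control replicate 1. Kif13a, a vesicle motor, differed by 0.16 ± 0.23 (adjusted p = 0.870), or 0.37 ± 0.20 without control replicate 1 (adjusted p = 0.379). Kif17, a dendritic motor, was not above background on any array. Of the 14 transport genes, 12 were above background on at least 3 arrays, 10 had a positive difference and 0 passed. Their median was 0.09 with all arrays and 0.15 without control replicate 1.

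Control replicate 1 held the highest of the 6 values for 8 of the 20 kinesin genes above background on all arrays, 6 of them transport genes, and for 31.3% of all 17843 such probes. Its value was nearer to the anti-miR-335 mean than to the mean of the other 2 controls for 15 of the 20. The same count was not made over all probes. Across the 17843 probes this array also correlated more with the anti-miR-335 arrays (mean r = 0.984) than with the other 2 controls (mean r = 0.976). The largest excess over those controls was in Kif2a (1.05, log2), Kif21a (0.82), Kif13b (0.76) and Kif1c (0.75). The array weights that limma estimates were 0.366 for this array and 0.781 to 2.25 for the others. With these weights 1 kinesin probe passed (Klc1; 1.36% of all probes), and without both replicate 1 arrays 4 did (Klc1, Klc4, Kif3c and Kif1c; 4.57% of all probes).

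**Figure D3:**
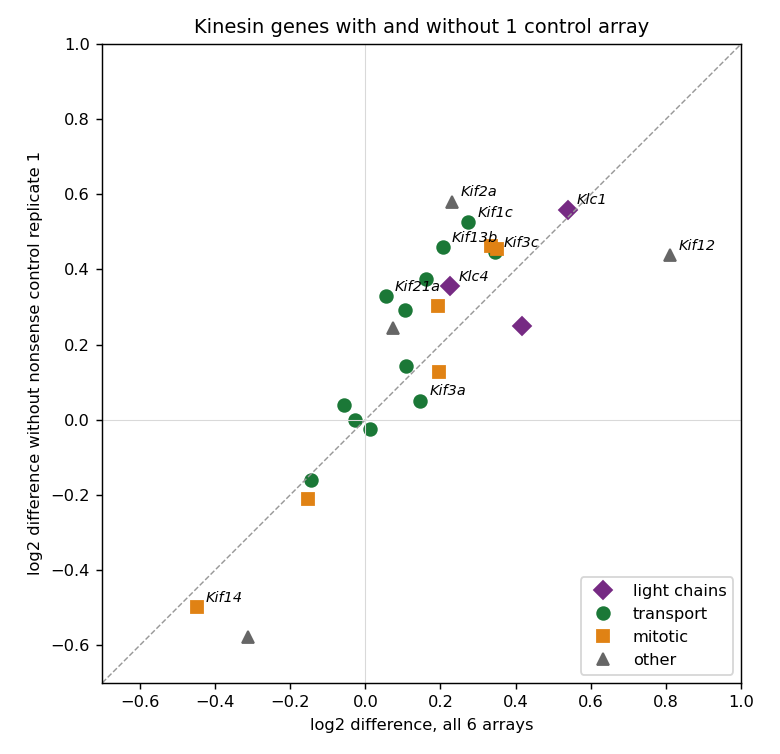
Log2 difference (anti-miR-335 minus nonsense control) of 25 kinesin genes above background on at least 3 arrays, with all 6 arrays (horizontal) and without nonsense control replicate 1 (vertical). The dashed line marks equal values. Kif2a (0.23 and 0.58), Kif1c (0.27 and 0.53) and Kif13b (0.21 and 0.46) lie above it, Klc1 (0.54 and 0.56) close to it and Kif12 (0.81 and 0.44) below it.

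Of 11 mitotic kinesin genes, 6 were above background on at least 3 arrays and 5 of them on all 6, while Kif23 and Kif2b were above it on none. Of the 14 transport genes 12 were above it on at least 3 arrays. Kif11, the motor that pushes the spindle poles apart, had 0.932, 1.44 and 1.25 on the anti-miR-335 arrays, against 1.21, 0.900 and 1.03 in the controls. The groups overlapped, with a log2 difference of 0.19 ± 0.22 (SE; adjusted p = 0.834), or 0.30 ± 0.23 without control replicate 1 (adjusted p = 0.552). A dim second probe, at 0.430 to 0.684 on the anti-miR-335 arrays and 0.320 to 0.786 in the controls, gave -0.07 ± 0.37. Kif18a, which aligns chromosomes at the spindle equator, had 1.77, 1.84 and 2.13 on the anti-miR-335 arrays, against 1.81, 1.43 and 1.34 in the controls. Control replicate 1 again lay with the anti-miR-335 arrays, and the log2 difference was 0.33 ± 0.17 (adjusted p = 0.605), or 0.46 ± 0.16 without it (adjusted p = 0.146).

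Kif18b, which controls the microtubules that reach from the spindle poles to the cell edge, had 0.938, 1.35 and 1.40 on the anti-miR-335 arrays, against 1.10, 0.857 and 0.909 in the controls. Its log2 difference was 0.35 ± 0.22 (SE; adjusted p = 0.675). Kif2c, which removes faulty attachments of microtubules to chromosomes, had 1.15, 1.119 and 1.16 on the anti-miR-335 arrays, against 0.905, 1.01 and 1.08 in the controls. Its groups did not overlap, but by a narrow margin, and the log2 difference was 0.20 ± 0.19 (adjusted p = 0.788), or 0.13 ± 0.19 without control replicate 1. Kif14, a motor of cytokinesis, was the lowest of the detected mitotic genes, with 0.874, 0.554 and 0.513 on the anti-miR-335 arrays, against 0.800, 0.868 and 0.909 in the controls. Anti-miR-335 replicate 1 lay among the controls, and the log2 difference was -0.45 ± 0.26 (adjusted p = 0.650).

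Kif22, which binds chromosome arms, had 2.48, 2.96 and 2.71 on the anti-miR-335 arrays, against 2.77, 3.05 and 3.23 in the controls, and differed by -0.15 ± 0.13 (log2, SE; adjusted p = 0.772). Kif20a, of the central spindle, was above background on 1 anti-miR-335 array and 0 control arrays, at 0.520, 0.824 and 0.126 against 0.541, 0.432 and 0.373 in the controls. Kif23, another motor of the central spindle, had 0.238, 0.229 and 0.210 on the anti-miR-335 arrays, against 0.315, 0.209 and 0.145 in the controls. Kif4, a chromosome-bound motor, and Kif20b, which acts late in cytokinesis, were above background on 1 array each. Over all 11 mitotic genes 7 differences were positive and 0 passed, with a median of 0.19. That median was -0.000839 without anti-miR-335 replicate 1 and -0.00442 without nonsense control replicate 2.

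Several mitotic kinesin genes shared a promoter feature that the naming rule did not use. Promoter windows from 250 bases before to 50 bases after the annotated start were taken from RefSeq (GRCm38.p6) and matched 31 of the 37 genes. They were searched on both strands for TTTGAA, the core of the cell cycle genes homology region (CHR), through which cell cycle genes are repressed outside division, and for CCAAT, the box bound by NF-Y. Overlaps between the motifs were not removed. TTTGAA was found for 8 of 10 mitotic genes (80.0%), 1 of 10 transport genes, 0 of 3 light chain genes and 2 of 8 others, against 20.2% of all 27025 genes with a window. CCAAT was found for 7 of 10 mitotic genes and 3 of 10 transport genes, against 41.1% of all. It was also found for 2 of 3 light chain genes (Klc3 and Klc4) and 3 of 8 others. Both were present for 6 of 10 mitotic genes and 2 of 8 others, against 8.97% of all, and for 0 transport and 0 light chain genes. In 6 mitotic genes TTTGAA began within 50 bases of the start, and the share of all genes with a match that close was not counted. Outside the mitotic list it was also that close in Kif1a (-44), a transport gene, and in Kif26b (-9). The TTTGAA matches of Kif14, Kif2c, Kif27 and Kif1a lay in windows wholly inside the span of the gene, around an inner annotated start. The Klc1 window lay inside its gene too. A match is a run of letters in a window and not a binding site, and no test was made.

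Windows of 3 mitotic genes with both motifs are shown, with that of Klc1, which holds neither. Capitals mark both motifs, each as written above or as its reverse complement. They lie at chr19:37376132-37376431 (plus strand, Kif11), chr7:127042371-127042670 (minus strand, Kif22), chr9:61946750-61947049 (minus strand, Kif23) and chr12:111758618-111758917 (plus strand, Klc1).
Kif11: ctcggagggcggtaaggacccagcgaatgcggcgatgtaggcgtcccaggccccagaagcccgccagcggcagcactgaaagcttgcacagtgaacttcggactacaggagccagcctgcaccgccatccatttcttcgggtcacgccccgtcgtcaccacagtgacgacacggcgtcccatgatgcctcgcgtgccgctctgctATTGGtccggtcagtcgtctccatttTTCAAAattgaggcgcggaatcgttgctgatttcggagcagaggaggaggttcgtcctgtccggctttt
Kif22: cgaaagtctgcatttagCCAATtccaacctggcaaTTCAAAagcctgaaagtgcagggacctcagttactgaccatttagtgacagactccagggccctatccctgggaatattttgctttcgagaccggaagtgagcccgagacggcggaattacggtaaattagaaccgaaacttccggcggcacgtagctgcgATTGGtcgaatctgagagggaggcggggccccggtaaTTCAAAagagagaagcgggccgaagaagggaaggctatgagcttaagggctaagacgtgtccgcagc
Kif23: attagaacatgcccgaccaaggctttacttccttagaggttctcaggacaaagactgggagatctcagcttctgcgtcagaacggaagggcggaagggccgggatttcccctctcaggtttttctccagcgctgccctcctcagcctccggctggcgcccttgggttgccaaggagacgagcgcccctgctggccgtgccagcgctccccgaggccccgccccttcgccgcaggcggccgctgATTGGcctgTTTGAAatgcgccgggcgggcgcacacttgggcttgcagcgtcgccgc
Klc1: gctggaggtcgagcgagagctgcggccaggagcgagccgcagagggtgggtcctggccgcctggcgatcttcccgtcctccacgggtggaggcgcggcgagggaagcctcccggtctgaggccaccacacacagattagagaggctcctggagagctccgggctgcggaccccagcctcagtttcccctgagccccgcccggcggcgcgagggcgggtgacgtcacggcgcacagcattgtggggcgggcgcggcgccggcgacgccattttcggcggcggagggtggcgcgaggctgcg

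**Figure D4:**
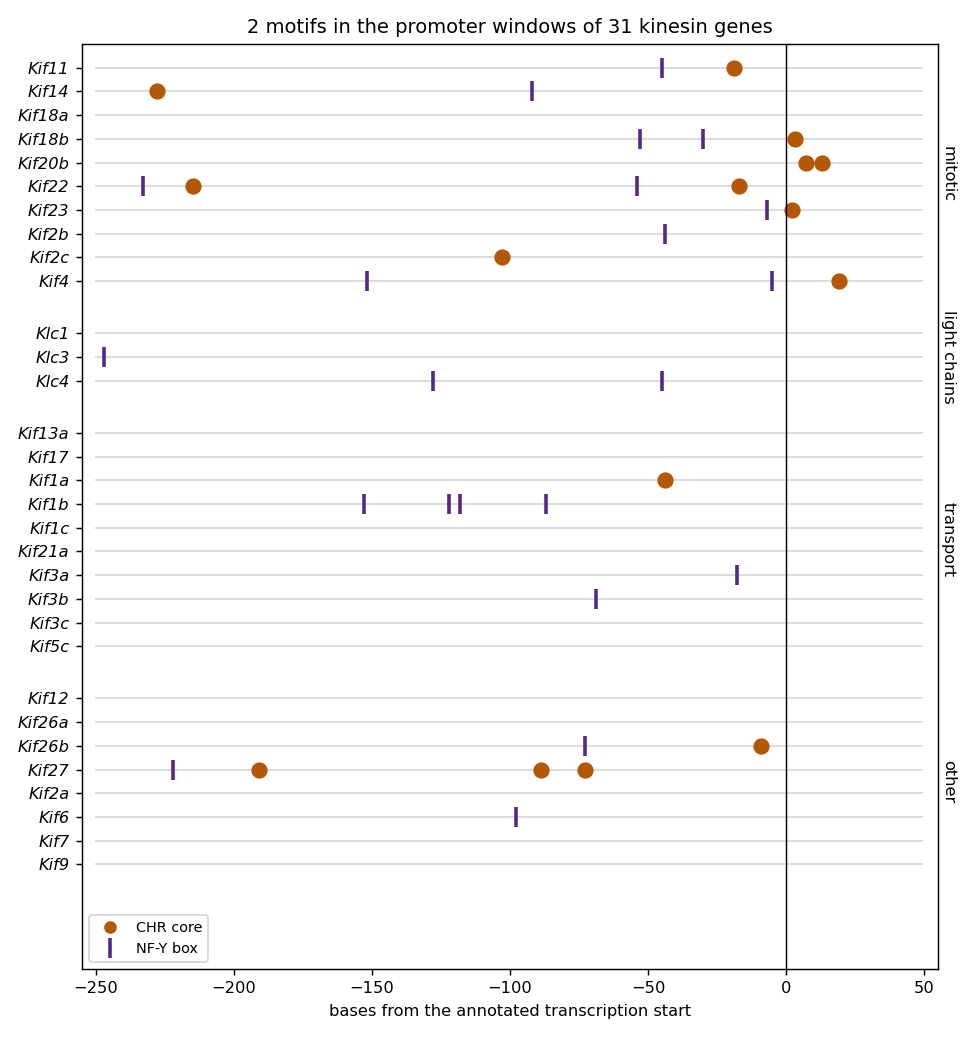
Positions of the CHR core (circles) and the NF-Y box (bars) in the promoter windows of 31 kinesin genes, in bases from the annotated start (0). Where a gene has more than 1 annotated start, the matches of all its windows are drawn on 1 line. Circles lie within 50 bases of the start in 6 of 10 mitotic genes, a count not made over all genes. They also lie that close in Kif26b and in Kif1a, the 1 of 10 transport genes with a circle.

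Among the other members, Kif12, best known from kidney and liver epithelium, had the largest difference. It had 1.38, 1.38 and 1.77 on the anti-miR-335 arrays, against 0.509, 0.884 and 1.38 in the controls, where replicate 1 was not above background. The lowest anti-miR-335 value and the highest control value were nearly equal, and the log2 difference was 0.81 ± 0.32 (SE; adjusted p = 0.510), or 0.44 ± 0.23 without control replicate 1 (adjusted p = 0.354). Kif2a, which shortens microtubules and limits axon branches, had 3.47, 3.31 and 4.13 on the anti-miR-335 arrays, against 5.003, 3.03 and 1.93 in the controls. The controls alone spanned the whole range, with a log2 difference of 0.23 ± 0.28 (adjusted p = 0.842), or 0.58 ± 0.18 without control replicate 1 (adjusted p = 0.123). Kif7, the ciliary kinesin of Hedgehog signalling, differed by 0.07 ± 0.19 (adjusted p = 0.936), or 0.24 ± 0.16 without control replicate 1 (adjusted p = 0.487).

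Kif6, found in motile cilia, had 0.669, 0.822 and 0.797 on the anti-miR-335 arrays, against 0.827 and 0.979 in control replicates 1 and 2, replicate 3 being empty. The groups did not overlap over these 5 values, and the fit of the 5 gave -0.24 ± 0.26 (log2, SE; adjusted p = 0.814), but a second Kif6 probe, at 0.447 to 0.762 on the anti-miR-335 arrays and 0.296 to 0.805 in the controls, gave 0.21 ± 0.39. Kif27, also of motile cilia, had 0.688, 0.620 and 0.443 on the anti-miR-335 arrays, against 0.493, 0.982 and 0.749 in the controls on its brighter probe (-0.31 ± 0.32; adjusted p = 0.805). Without control replicate 1 it differed by -0.58 ± 0.30 (adjusted p = 0.346). Kif9, Kif19a, Kif26a and Kif26b were above background on at most 1 array. Of the 9 other genes 5 differences were positive and 0 passed, with a median of 0.07.

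A pair of probes was present for 9 genes, and in 5 of the 9 the pair differed in sign (Kif11, Kif1b, Kif21a, Kif5c and Kif6). For Kif11 and Kif5c the second probe was above background on 1 array and for Kif21a on none. The dim Kif21a probe had 0.116 to 0.434 on the anti-miR-335 arrays and 0.298 to 0.495 in the controls, and the dim Kif5c probe 0.349 to 0.464 and 0.297 to 0.666. On the replicate 1 arrays, where scanner flags were used, 31 of the 46 kinesin probes in anti-miR-335 and 27 in nonsense control had a good spot, and the rest were marked as near background.

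Genes that work with kinesins were also read. Among 16 measured cargo adaptors, 11 differences were positive, 5 negative and 0 passed, with a median of 0.17. These counts take the brightest probe of each gene. That of Rhot1 gave 0.24 ± 0.16 (SE), but its other probe, lower without overlap, gave -0.36 ± 0.12 (adjusted p = 0.467 by limma). For Fez1 the brighter probe gave 0.13 ± 0.11 and the dimmer one 0.40 ± 0.11 with all arrays. The dimmer Fez1 probe passed without control replicate 1 (adjusted p = 0.0378). Mapk8ip1, the JIP1 scaffold that binds kinesin light chains, had 10.05, 14.7 and 13.7 on the anti-miR-335 arrays, against 8.05, 7.59 and 8.06 in the controls. Its groups did not overlap, and the log2 difference was 0.68 ± 0.14 (SE; adjusted p = 0.367), or an adjusted p of 0.0386 without control replicate 1. Clstn2, of the calsyntenin family of membrane cargo proteins, had 0.436, 0.278 and 0.503 on the anti-miR-335 arrays, against 0.868, 0.929 and 1.24 in the controls. It was above background on 1 anti-miR-335 array and all 3 controls, with a log2 difference of -1.35 ± 0.30 (adjusted p = 0.374). Trak1, a mitochondrial adaptor named after its values were seen, also passed without control replicate 1 on its brighter probe (0.43 ± 0.10; adjusted p = 0.0461), but not with all arrays (0.30 ± 0.13; adjusted p = 0.539). Its dimmer probe, also above background on all 6 arrays, gave 0.08 ± 0.12 (adjusted p = 0.879). Without control replicate 1 that probe gave 0.11 ± 0.11 (adjusted p = 0.679).

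The dynein motor, which moves cargo the opposite way along microtubules, had 18 measured genes, of which 14 differences were positive and 0 passed (median 0.20). Nde1, a dynein regulator of neural precursor division, had 9.39, 9.55 and 10.8 on the anti-miR-335 arrays, against 8.36, 8.52 and 7.44 in the controls (0.29 ± 0.11 SE; adjusted p = 0.494). Dctn5, a dynactin subunit, had 42.0, 44.7 and 45.1 on the anti-miR-335 arrays, against 43.1, 32.4 and 29.4 in the controls (0.35 ± 0.14; adjusted p = 0.518). Control replicate 1 lay among the anti-miR-335 arrays, and Dctn5 passed without it (0.51 ± 0.09; adjusted p = 0.0285). Of 17 spindle partners, 8 differences were positive, 9 negative and 0 passed, with a median of -0.01. Aurka, a spindle pole kinase, had 1.94, 2.12 and 1.98 on the anti-miR-335 arrays, against 1.67, 1.64 and 1.73 in the controls (0.26 ± 0.14; adjusted p = 0.624). Kntc1, a kinetochore protein that recruits dynein, had 0.745, 0.367 and 0.331 on the anti-miR-335 arrays, against 0.954, 0.734 and 0.613 in the controls (-0.75 ± 0.35; adjusted p = 0.569), and was above background on 1 anti-miR-335 array and 2 control arrays. Of 4 measured C-type and associated genes, 1 difference was positive and 0 passed, that of Kifc3. Kifc3, a motor that moves the opposite way to most kinesins, had 8.10, 9.18 and 9.67 on the anti-miR-335 arrays, against 9.64, 7.03 and 7.11 in the controls (0.19 ± 0.14; adjusted p = 0.714), or 0.34 ± 0.10 without control replicate 1 (adjusted p = 0.0943). Kifc2 had 1.11, 1.14 and 1.27 on the anti-miR-335 arrays, against 1.31, 1.25 and 1.21 in the controls (-0.10 ± 0.17; adjusted p = 0.896).

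**Figure D5:**
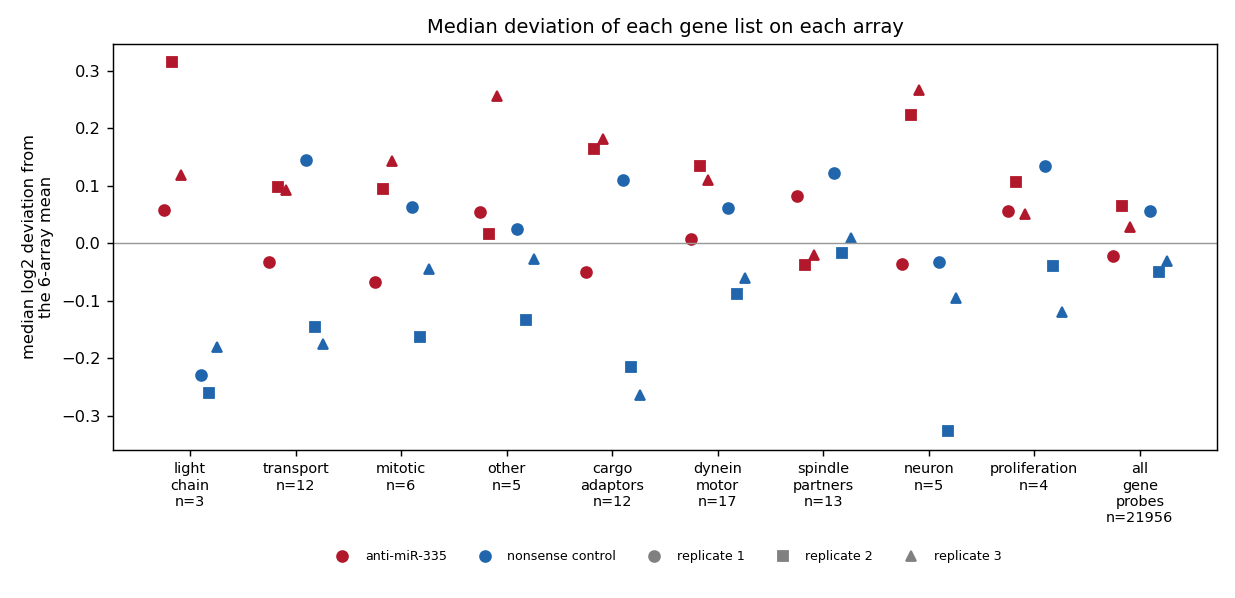
Median log2 deviation of each list from the mean of the 6 arrays (vertical axis), for genes above background on at least 3 arrays, with n genes under each list. The light chains, with the Klc3 controls below the background limit, lie at 0.06 to 0.31 on the anti-miR-335 arrays and at -0.26 to -0.18 on the controls, while nonsense control replicate 1 is the highest array for the transport list (0.15), against -0.15 and -0.18 on the other controls.

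Markers of cell type and division were set beside these lists, and their part in the results was not tested. Neuronal markers had a summed intensity of 13.6, 17.8 and 17.8 on the anti-miR-335 arrays, against 14.7, 10.8 and 11.5 in the controls. Of 9 measured, 5 were above background on at least 3 arrays (Tubb3, Dcx, Map2, Snap25 and Syp), and Nefl, Nefm and Stmn2 on none. Of the 9 differences 8 were positive, 1 negative and 0 passed. Dcx was at 3.64, 5.53 and 5.81 against 2.56, 2.44 and 2.27 in the controls, without overlap. Its log2 difference was 1.02 ± 0.18 (adjusted p = 0.333), or 1.06 ± 0.18 without control replicate 1 (adjusted p = 0.0252). A second Dcx probe, above background on 1 array, gave -0.27 ± 0.50. Proliferation markers summed to 33.7, 33.9 and 34.1 on the anti-miR-335 arrays, against 34.1, 32.2 and 29.9 in the controls, and 4 of the 5 measured exceeded the background limit on 3 or more arrays. Most of that sum was Pcna, at 26.4, 27.2 and 26.3 against 26.7, 25.9 and 23.6 in the controls. Of the 5 proliferation differences 4 were positive, 1 negative and 0 passed. Astrocyte markers summed to 179, 171 and 160 on the anti-miR-335 arrays, against 180, 146 and 145 in the controls, with all 5 above background. S100b made up 100.2, 81.1 and 70.1 of it, against 93.4, 84.4 and 89.8 in the controls. Aqp4, at 15.0, 17.9 and 17.9 against 11.5, 10.04 and 9.85 in the controls, did not overlap between groups (log2 difference 0.69 ± 0.11; adjusted p = 0.333, and 0.0159 without control replicate 1). Precursor markers summed to 315, 342 and 317, against 311, 293 and 291 in the controls. Oligodendrocyte lineage markers summed to 23.9, 32.3 and 6.26, against 5.39, 29.5 and 31.4 in the controls. Most of that sum was Olig1, at 18.6, 26.8 and 1.61 against 1.93, 24.3 and 25.9 in the controls, whereas Sox10 was at 3.13, 3.34 and 3.40 against 2.31, 2.44 and 2.89 in the controls without overlap (0.38 ± 0.13; adjusted p = 0.486). Microglial markers summed to 5.13 to 5.67, against 6.39 to 6.73 in the controls, and Ptprc and Itgam were not above background on any array. Of the 5 microglial markers 3 differences were positive. Trem2 was at 3.42, 3.19 and 3.21 against 4.64, 4.85 and 5.08 in the controls, and Cx3cr1 at 0.897, 0.978 and 1.40 against 0.584, 0.806 and 0.783 in the controls, neither with overlap. Besides Dcx and Aqp4, 3 more markers passed by limma without control replicate 1, where 3.17% of all probes passed. They were Trem2 (-0.60; adjusted p = 0.0233), the astrocyte marker Slc1a3 (0.52; adjusted p = 0.0378) and the precursor marker Pax6 (0.43; adjusted p = 0.0376). With all 6 arrays 0 markers passed. In RNA from whole cultures, fewer cells of a type and less RNA per cell cannot be told apart.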

How the data were processed

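The intensities deposited by the authors are linear single-colour values divided by each array's median (global median normalization with CodeLink software, per the labels). On the 2 arrays with scanner output all 35976 (nonsense control replicate 1) and 36032 (anti-miR-335 replicate 1) values equalled its normalized intensity within 0.0001. Gene names came from the platform annotation, checked against RefSeq (GRCm38.p6); 21615 gene probes have 1 symbol, 681 several and 12671 none. Control spots were left out.

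Intensities under the 5th percentile of positive values (0.163) were raised to it before log2. The two-sided test was limma's (version 3.58.1, R 4.3.3), with its variance prior following mean intensity and Benjamini-Hochberg adjustment over 34847 probes that had 2 or more values in each group; the threshold was an adjusted p of 0.05. For arrays, their number limits the precision, here 3 per group. Where all arrays of a group were below background, the fold is a bound: that group is set, per array, to the probe's signal or to the dimmest signal above the limit, whichever is higher. Alternatives were other floors, quantile normalization, array weights, no intensity trend, no dim probes, the replicate number as a block and arrays left out. Scripts were tested on simulated data. Members, lists and alternatives were chosen with earlier results of these data known. Values on every array were given for kinesin genes above background on at least 3 arrays with groups that do not overlap, the 3 of smallest p per kinesin list, 11 genes always (of which Klc2 had no probe under the rule), and the 2 of smallest p per partner list. Kif1b, Kif13b, Kif21a, Kif22, Trak1, Rhot1, Fez1 and single markers were added after their values were seen.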

Additional observations from a re-analysis of the deposited data

How the results depend on the processing

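With all 6 arrays 0 probes passed. The count was 1 after quantile normalization, 474 with array weights and 1571 without the replicate 1 pair, and 0 to 1100 when each array was left out in turn (1100 without nonsense control replicate 1, 1 without anti-miR-335 replicate 1). It stayed at 0 with the replicate number as a replicate block, with either other floor, without dim probes and with no intensity trend. Kinesin probes that passed were 1 with array weights (Klc1, adjusted p = 0.0360), 4 without the replicate 1 pair (Klc1, Klc4, Kif3c and Kif1c; 4.57% of all probes passed there) and 0 to 1 in the fits without 1 array. With the replicate block 0 kinesin probes passed. No label says that the replicate numbers pair the arrays, and deviations of same-numbered arrays correlated at -0.23, 0.04 and -0.26 across probes.

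The mitotic median of 0.19 was 0.0626 with the mean of all probes of a gene, and -0.00442 to 0.23 over the fits without 1 array. The transport median of 0.09 was 0.21 without the replicate 1 pair and 0.04 to 0.15 over the fits without 1 array. The median of the other genes was 0.00 with the floor at the 20th percentile, 0.20 with array weights and 0.36 without the replicate 1 pair, and -0.11 to 0.30 over those fits.

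Genes near 0 turned sign. Kif1a was at 0.0713 with array weights and 0.14 without the replicate 1 pair, and from -0.14 to 0.0446 without 1 array. Kif5b was at 0.0118 and 0.0768 in the same 2 fits and from -0.11 to 0.0488 without 1 array. Kif5a was at -0.0905 with no floor, -0.15 without the pair and from -0.22 to 0.57 without 1 array. Kif20a was at 0.23 with the higher floor and from -0.61 to 0.56 without 1 array. Kif6 was at 0.12 with the mean of both probes. Kif23 ranged from -0.19 to 0.29 and Kif2a from -0.11 to 0.58 without 1 array. Klc1 stayed positive in every fit run, from 0.46 to 0.70, but was not alone in keeping its sign. Kif3c (0.23 to 0.54), Kif18a (0.25 to 0.52) and Kif12 (0.44 to 1.16) were among the others that stayed positive. Kif14 (-0.74 to -0.30) was among those that stayed negative. The cause was not tested.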

Other observations

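The array carries kinesin probes that the platform annotation leaves without a symbol but the scanner output describes. A probe described as kinesin light chain 2 (Klc2) had intensities of 6.70, 8.47 and 7.44 on the anti-miR-335 arrays, against 5.86, 6.19 and 6.51 in the nonsense controls. Its groups did not overlap, with a log2 difference of 0.28 ± 0.12 (SE; adjusted p = 0.528 by limma). A further probe described as Kif21b had 13.3, 15.5 and 14.6 on the anti-miR-335 arrays, against 14.4, 13.4 and 15.4 in the controls (0.01 ± 0.11; adjusted p = 0.990). A probe described as similar to Kif11 was above background on 1 anti-miR-335 array and 2 control arrays, at 0.153 to 0.542 against 0.404 to 1.06 in the controls. Whether the Kif11 probes also bind this similar transcript was not tested.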
